A study of Mus musculus with 12 samples.

Results

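The CCR4-NOT complex is the main cytoplasmic machinery that shortens the poly(A) tails of mRNAs, and 10 genes of its subunits were examined here in the liver of mice that lack Phgdh in hepatocytes: Cnot1, Cnot2, Cnot3, Cnot4, Cnot6, Cnot6l, Cnot7, Cnot8, Cnot9 and Cnot10. The group was chosen on its values in these same arrays, because the difference between genotypes of Cnot7 and Cnot9 was already known, so every difference between genotypes given for a subunit is a description and supports nothing. All 10 genes had at least 1 probe whose RefSeq accession named them. They had 14 probes in all, of which 12 gave a signal well above background on all 12 arrays, and all 10 genes were therefore among the 16915 genes tested.

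Shortening of the poly(A) tail is usually the first step of mRNA decay, and it also lowers translation. Cnot1 is the scaffold on which the other subunits assemble. Cnot7 and Cnot8 are close paralogs of the Caf1 type and occupy the same place in the complex, and Cnot6 and Cnot6l are the paralogous deadenylases of the Ccr4 type. Proteins that bind particular mRNAs, such as those of the Btg/Tob and Zfp36 families and the Tnrc6 proteins of microRNA silencing, bring the complex to its targets, after which decapping factors and exonucleases remove the transcript.

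Liver RNA of 12 mice was measured by single-color hybridization, each mouse on an Agilent array of its own. The 6 LKO mice carried 2 floxed Phgdh alleles and a Cre driven by the albumin promoter (Alb+/Cre;Phgdh flox/flox), and the 6 Floxed mice were littermates with the same floxed alleles and no Cre. All were C57BL/6 males of 30 weeks on chow with 20% casein. Since the albumin promoter acts in hepatocytes, the other cells of the liver kept Phgdh. In such whole tissue, fewer cells of a type and less RNA per cell cannot be told apart. Values are log2 intensities after quantile normalization, and they compare the same probe between mice, not the amounts of different transcripts.

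Of all spotted probes, between 21614 and 23913 were well above background in the Floxed arrays and between 22399 and 24252 in the LKO arrays, and no spot of the arrays was saturated. The arrays came on 3 slides, of which slide 1 carried only Floxed mice (1 to 4) and slide 3 only LKO mice (3 to 6). The genotypes met on slide 2 alone, with Floxed 5, Floxed 6, LKO 1 and LKO 2. The Phgdh probe spanned 4.81 to 5.5 among Floxed and 4.23 to 5.30 among LKO mice. It lay below every Floxed value in the 4 LKO mice of slide 3, but in LKO 1 (5.07) and LKO 2 (5.30) it was inside the Floxed range. Whether this probe lies in the deleted part of the gene was not determined here, so the subunits' differences are also given without those mice. All LKO mice left were then on slide 3, which held no Floxed mouse, so genotype and slide cannot be told apart in that subset. The other Phgdh probe was well above background on only 4 arrays and gave a difference of the opposite sign, 0.30 (SE 0.23). All 10 hepatocyte markers were well above background in all mice and none of them differed at the criterion used below. Among marker lists of 8 other cell types, Pecam1 of endothelium (0.70 on the log2 scale, 0.04 on slide 2) and Cel of pancreas acinar cells (0.54, and 0.27 on slide 2) did, both higher in LKO mice. Of all genes tested 8.35% differed at that criterion. The 8 endothelial markers tested were split, 4 higher and 4 lower. Of the 4 acinar markers tested 3 were higher and 1 lower, and Cela2a, Cpa1, Pnlip and Prss2 were not well above background on all arrays. In each marker list the groups overlapped in the mean log2 level of the markers.

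A gene was called where the unadjusted p of limma was below 0.05. By this criterion 2 of the 10 subunits, Cnot7 and Cnot9, were called, both lower in LKO mice. Over all genes tested 1413 were called (8.35%), 581 of them lower in LKO mice (3.43%) and 832 higher (4.92%). Scaled to the 75th percentile, 316 genes were lower and 1127 higher. Because the subunits were chosen with this contrast known, nothing is read from their count beside those shares. After Benjamini-Hochberg adjustment no gene of the array had a limma adjusted p below 0.05, and the lowest was 0.132. The estimates were below 0 for 7 subunits and above 0 for 3, with a median of -0.06, although the sign of Cnot1, Cnot2 and Cnot3 depended on the scaling or background correction. Over all genes tested the median was -0.0035 with 51.2% of genes below 0.

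**Figure D1:**
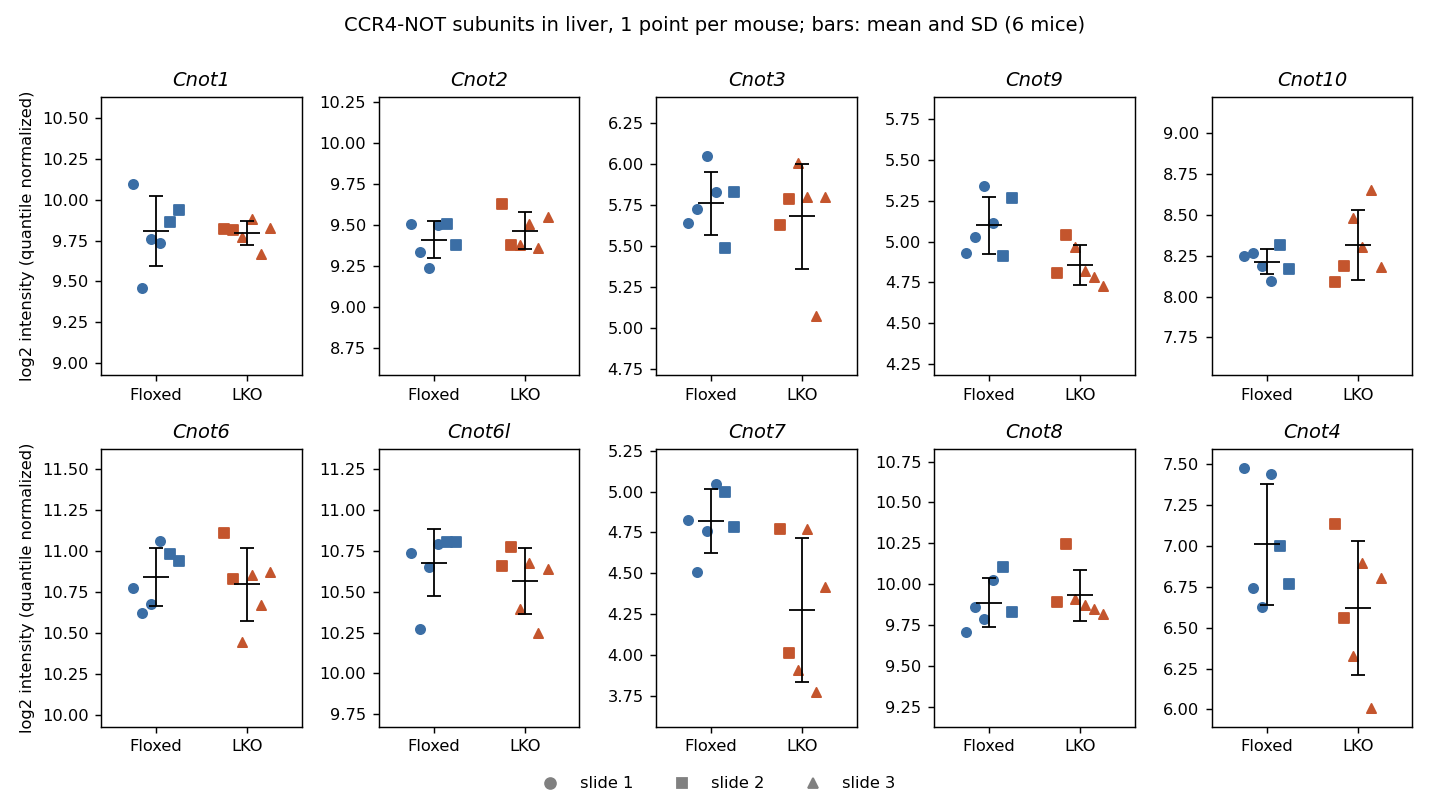
Log2 intensity (quantile normalized) of the 10 subunits in each mouse, with Floxed in blue and LKO in red. Point shapes mark the 3 slides, bars show mean and SD of 6 mice, and every panel spans the same number of log2 units. In the panels of Cnot7 and Cnot9, 4 of 6 LKO points lie below all Floxed points, while in those of Cnot1, Cnot2 and Cnot8 no LKO point does.

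Of the scaffold and its partners in the NOT module, Cnot1 and Cnot2 differed little, and Cnot3 was measured less precisely. Cnot1, the scaffold, measured 9.81 ± 0.21 in Floxed and 9.80 ± 0.07 in LKO mice (SD, n = 6 each), a difference of -0.01 (SE 0.10, 95% confidence interval -0.22 to 0.20). Its Floxed values ran from 9.46 to 10.09 with a median of 9.81, and all 6 LKO values, from 9.67 to 9.88, lay inside that range. Cnot2, which pairs with Cnot3 at the C-terminal end of the scaffold, spanned 9.23 to 9.51 (median 9.44) among Floxed and 9.36 to 9.63 (median 9.44) among LKO mice. Both medians were thus equal at this rounding, and the difference of the means was 0.05 (SE 0.08, interval -0.11 to 0.22). Another Cnot2 probe gave -0.03 (SE 0.11), and the last of its 3 probes was not well above background on any array. Cnot3, whose reduced dosage changes energy metabolism in mice, measured 5.76 ± 0.19 in Floxed and 5.68 ± 0.32 in LKO mice. That difference of -0.08 (SE 0.14, interval -0.39 to 0.23) rested on LKO 5, the lowest mouse at 5.07, and was 0.04 without it. The other LKO values, 5.63 to 6.01, were within the Floxed range of 5.49 to 6.05. The Cnot3 spot was only between 1.48 and 2.28 times as bright as its local background.

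Cnot9 and Cnot10 belong to further modules of the complex. Cnot9, which docks the Tnrc6 proteins of the microRNA pathway onto Cnot1, spanned 4.91 to 5.34 (median 5.07) among Floxed and 4.73 to 5.04 (median 4.81) among LKO mice. The LKO mice 1, 4, 5 and 6 lay below every Floxed mouse and LKO 2 and 3 inside the Floxed range, so the groups overlapped. Over all genes, 50 (0.296%) had groups without overlap, and none of the 10 subunits was among them. The means were 5.10 ± 0.18 and 4.86 ± 0.12 (SD, n = 6 each), a difference of -0.24 (SE 0.09) or 0.846 of the Floxed intensity. Cnot9 was the called subunit nearest to the threshold, and the nearest one outside it was Cnot4, at -0.39 (SE 0.20). When arrays were scaled by their 75th percentile instead of quantile normalized, the Cnot9 difference was -0.12, and with another background correction (normexp) it was -0.02, neither of which was called. On slide 2 alone it was -0.17.

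Cnot10, which joins Cnot11 on the N-terminal part of the scaffold, measured 8.21 ± 0.08 in Floxed and 8.31 ± 0.21 in LKO mice, a difference of 0.10 (SE 0.10, interval -0.11 to 0.31). LKO 5 (8.65) and LKO 3 (8.48) lay above the highest Floxed value of 8.32, and the others between 8.09 and 8.30. Without LKO 5 the difference was 0.03. On slide 2 the sign was opposite, at -0.11. Its partner Cnot11, outside the chosen group, differed by -0.12 (SE 0.08) by its brighter probe and by -0.21 (SE 0.08) by the dimmer one.

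Of the 4 deadenylases, Cnot7 had the largest difference. Its Floxed values were 4.83, 4.51, 4.76, 5.05, 5.0 and 4.79 for mice 1 to 6, and its LKO values 4.77, 4.01, 3.91, 4.77, 3.78 and 4.42. LKO 1 and LKO 4 thus sat at the level of the Floxed mice, while LKO 2, 3, 5 and 6 were below all of them. The means were 4.82 ± 0.19 and 4.28 ± 0.44 (SD, n = 6 each), a difference of -0.54 (SE 0.18), which is 0.686 of the Floxed intensity. On slide 2 the 2 LKO mice averaged 4.39 against 4.89 in the 2 Floxed mice, a difference of -0.50, and between slide 3 and slide 1 it was -0.57. Without the LKO mice of slide 2, which leaves no slide with both genotypes, it was -0.60. With slide as a fixed block in the limma fit neither Cnot7 (-0.50) nor Cnot9 (-0.17) was called. With slide as a random block, whose estimated correlation was -0.066, both were (-0.55 and -0.25).

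Cnot8, the paralog of Cnot7, measured 9.71, 9.86, 9.79, 10.03, 10.11 and 9.83 in Floxed mice 1 to 6 and 9.89, 10.25, 9.91, 9.87, 9.85 and 9.82 in LKO mice 1 to 6. No LKO mouse fell below the lowest Floxed mouse, and LKO 2 alone was above the highest. The means were 9.89 ± 0.15 and 9.93 ± 0.16, a difference of 0.04 (SE 0.09, interval -0.16 to 0.25), which was -0.02 without LKO 2. The interval leaves room for a change of either sign of up to 0.16 downward or 0.25 upward.

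The paralogs were then compared within each mouse, as log2 Cnot7 minus log2 Cnot8 relative to the Floxed mean. Whatever acts alike on both probes of an array drops out of this difference. The 2 genes had r = -0.025 over mice after centring within genotype, however, so there was little shared variation to remove. In the difference, Floxed mice lay between -0.29 and 0.19. LKO 1 (-0.06) and LKO 4 (-0.03) lay in that range, and LKO 6 (-0.33), LKO 3 (-0.93), LKO 5 (-1.01) and LKO 2 (-1.17) below it. The mean difference between genotypes was -0.59 (SE 0.22, against 0.18 for Cnot7 alone, interval -1.07 to -0.10), and on slide 2 it was -0.60. The spread was 0.16 (SD, n = 6) among Floxed and 0.51 among LKO mice. It was chosen with the Cnot7 difference known and is therefore given without a test. With the normexp background correction, which starts from the median spot and local background intensities and adds an offset of 50, it was -0.20 and the Cnot7 difference -0.17.

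**Figure D2:**
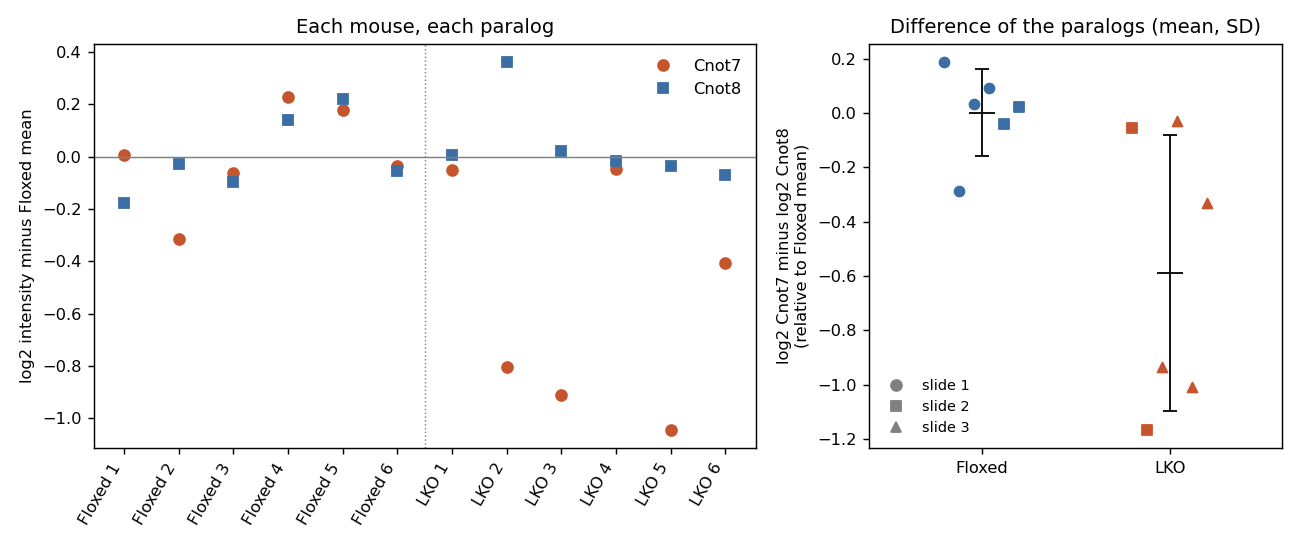
Left, log2 intensity of Cnot7 (red circles) and Cnot8 (blue squares) in each of the 12 mice, minus the Floxed mean of the gene. Right, log2 Cnot7 minus log2 Cnot8 relative to the Floxed mean for 6 Floxed (blue) and 6 LKO (red) mice, with mean and SD and slides as point shapes. LKO 2, 3, 5 and 6 lie below all Floxed mice in the difference, and LKO 1 and 4 among them.

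The Ccr4-type pair did not follow Cnot7 in size. Cnot6 spanned 10.62 to 11.06 (median 10.86) among Floxed and 10.44 to 11.11 (median 10.84) among LKO mice, a difference of the means of -0.05 (SE 0.12, interval -0.30 to 0.20). The highest and the lowest Cnot6 values were both those of LKO mice. Cnot6l spanned 10.27 to 10.80 (median 10.76) among Floxed and 10.25 to 10.77 (median 10.65) among LKO mice, a difference of -0.11 (SE 0.12, interval -0.36 to 0.14). The ranges coincided almost entirely, and Floxed 2 alone set the lower end of the Floxed range, the difference being -0.19 without it. A dimmer probe of Cnot6l gave -0.23 (SE 0.10).

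Cnot4 is a RING-type E3 ubiquitin ligase that in mammals is only loosely attached to the complex. It was the most variable subunit, with 7.48, 6.75, 6.63, 7.44, 7.0 and 6.76 in Floxed mice 1 to 6 and 7.13, 6.56, 6.32, 6.90, 6.01 and 6.80 in LKO mice 1 to 6. The LKO mice 2, 3 and 5 were below all Floxed mice and the other 3 among them. Its difference of -0.39 (SE 0.20, interval -0.83 to 0.05) was the largest after that of Cnot7 and was not called. Without the LKO mice of slide 2, which leaves no slide with both genotypes, it was -0.50 and called, whereas on slide 2 itself it was -0.04. With the replicate number of the mice as a block in the limma fit it was called as well. The other Cnot4 probe was not well above background on any array. Without the LKO mice of slide 2 the difference was -0.27 for Cnot9, -0.02 for Cnot1, 0.04 for Cnot2, -0.09 for Cnot3 and 0.19 for Cnot10. It was -0.13 for Cnot6 and -0.19 for Cnot6l, and that of Cnot8 changed sign, to -0.03.

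**Figure D3:**
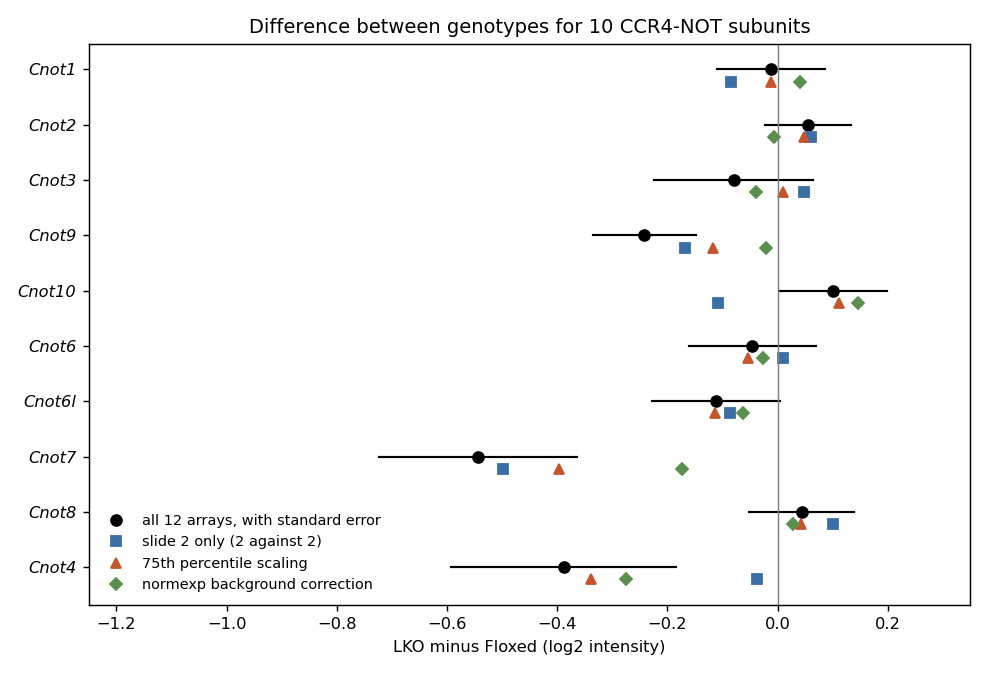
Difference between genotypes (LKO minus Floxed, log2 intensity) of each subunit from all 12 arrays with its standard error (black), from slide 2 alone, after scaling to the 75th percentile and after normexp background correction. Cnot4, Cnot6l, Cnot7 and Cnot9 stay below 0 in all 4 estimates, though Cnot9 moves from -0.24 to -0.02 and Cnot4 is at -0.04 on slide 2. Cnot8 stays above 0, and Cnot1, Cnot2, Cnot3, Cnot6 and Cnot10 have estimates on both sides of 0.

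The called subunits were the 2 with the dimmest probes, a property of the probe that is not an amount of RNA. The mean intensity of Cnot7 stood at percentile 3.94 and that of Cnot9 at percentile 8.91 of the genes tested, whereas Cnot8 stood at 66.1 and Cnot6, the brightest, at 74.5. The Cnot7 spot was between 1.26 and 1.87 times as bright as its local background over the 12 arrays and the Cnot8 spot between 11.6 and 23.1 times. Genes with dim probes were called more often across the array, from 20.7% of genes in the dimmest decile of intensity, where Cnot7 and Cnot9 lie, to 1.54% in the brightest decile. In the dimmest decile 9.34% of genes were called lower in LKO mice. The median SD within a genotype fell over the same deciles from 0.33 to 0.13. Cnot7 varied about as much as its decile (0.34), Cnot9 less (0.15), and Cnot4 more (0.39, against a median of 0.25 in its own decile). What part brightness had in the called differences was not tested.

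**Figure D4:**
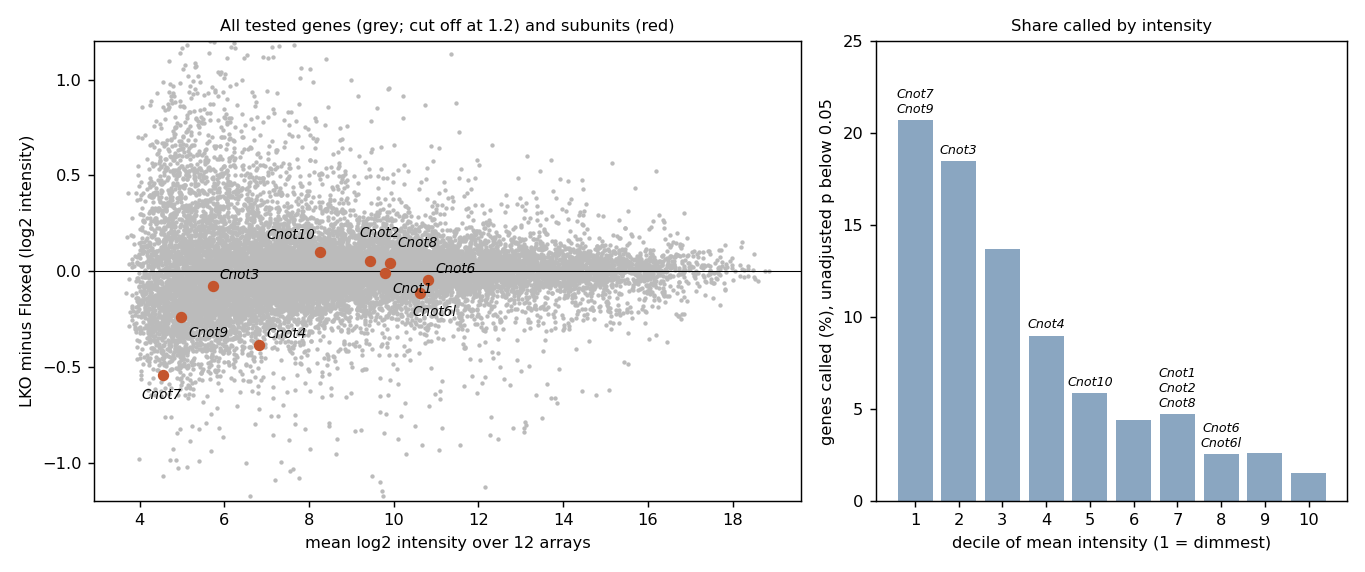
Left, difference between genotypes (log2 intensity) against mean log2 intensity over 12 arrays for the tested genes (grey, axis limited to 1.2) and the subunits (red). Right, percentage of genes called in each decile of mean intensity, with the subunits each decile holds; it falls from 20.7% to 1.54%, and Cnot7 and Cnot9 lie in the dimmest decile.

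Variation among mice of the same genotype did not enter the choice of the subunits, and it was used to ask which of them moved together with Cnot7. Values were centred within genotype, and the 9 correlations over 12 mice were tested by permutation with 100000 resamples. Here and below the shuffling ran over all 12 mice, regardless of genotype and slide. Because Cnot7 varied more among LKO (SD 0.44) than among Floxed mice (SD 0.19), these permutation p-values are approximate. Cnot7 correlated with Cnot4 (Pearson r = 0.804, permutation p = 0.0021, adjusted p = 0.0119, Spearman rho = 0.839), with Cnot6 (r = 0.776, permutation p = 0.0032, adjusted p = 0.0119, rho = 0.790) and with Cnot2 (r = 0.775, permutation p = 0.0040, adjusted p = 0.0119, rho = 0.769). For all 3 the adjusted permutation p of rho was also below 0.05, the highest being 0.0150. Without the 2 mice whose Cnot7 lay farthest from its median, LKO 1 and LKO 4, r was 0.75 for Cnot4, 0.764 for Cnot6 and 0.758 for Cnot2. LKO 2, 3 and 5 were the lowest LKO mice for both Cnot4 and Cnot7, and r with Cnot4 was 0.603 within the Floxed mice and 0.943 within the LKO mice.

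Cnot6l (r = 0.656) and, with the opposite sign, Cnot10 (r = -0.646) passed by Pearson's r, each with an adjusted permutation p of 0.0393, but not by Spearman's rho, which was 0.517 and -0.538 with an adjusted permutation p of 0.135 each. The scaffold Cnot1 did not pass (r = 0.427, permutation p = 0.167, adjusted p = 0.250). Neither did Cnot3 (r = 0.178) nor Cnot9 (r = -0.283), the other called subunit. The paralog Cnot8 had r = -0.025 with Cnot7 (permutation p = 0.937, rho = -0.021), and 0.125 without LKO 1 and LKO 4.

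Such correlations were common on these arrays. Over 16891 genes 18.0% had r of at least 0.5 with Cnot7 and 17.7% had r of -0.5 or less. In 321 genes (1.90%) r was at least as high as that of Cnot4, negative correlations of that size not being counted. Cnot7 was also set against 11 measures of the array and of cell type markers, and no such relation had an adjusted permutation p of Pearson's r below 0.05. The log2 of the 75th percentile of intensity, a measure of how bright an array was before normalization, had r = 0.703 with Cnot7 (permutation p = 0.0118, adjusted p = 0.0702, rho = 0.804 with adjusted p = 0.0308, and r = 0.727 without LKO 1 and LKO 4). The mean log2 level of 5 lymphocyte markers had r = -0.695 (permutation p = 0.0128, adjusted p = 0.0702, rho = -0.720 with adjusted p = 0.0597, and r = -0.655 without those mice). Taken around each marker's mean over all mice, it spanned -0.22 to 0.31 among Floxed and -0.39 to 0.17 among LKO mice. The other listed markers, Cd3g, Cd79a and Klrb1c, were not well above background on all arrays. The part of array brightness and of the lymphocyte markers in the correlations was not tested.

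Across all 45 pairs of subunits r ran from -0.674 for Cnot2 with Cnot9 to 0.880 for Cnot2 with Cnot4, with a median of 0.117, and 26 pairs were positive. The subunits thus did not all correlate positively over these mice, though the pairs were not tested as a set. The probes of Cnot3, Cnot7 and Cnot9 were near background, and what part this had in their r was not tested. The genes whose centred values were most like those of Cnot7 over the 12 mice were Mex3c (r = 0.943), Wars2 (r = 0.938), Pfkfb2 (r = 0.938), Tmtc3 (r = 0.929) and Mapk1ip1 (r = 0.925), none of which was called between genotypes. Those most like Cnot9 were Irak4 (r = 0.882), Scmh1 (r = 0.879), Plpp6 (r = 0.874), Oaz2 (r = 0.859) and Cenpt (r = 0.848).

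**Figure D5:**
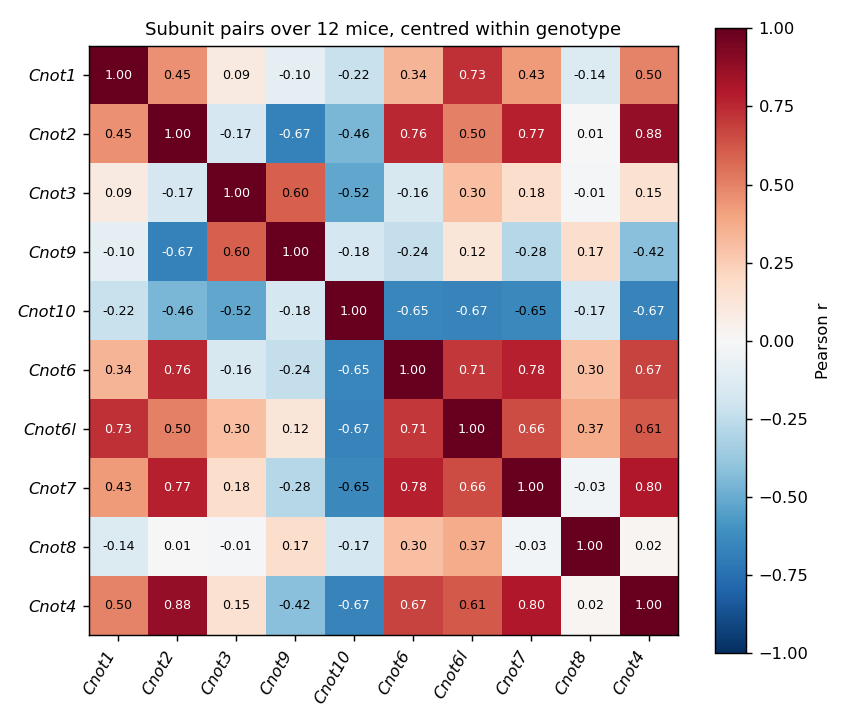
Pearson r over 12 mice between every pair of subunits, from log2 intensities centred within genotype. The highest value is 0.880 (Cnot2 with Cnot4), the lowest -0.674 (Cnot2 with Cnot9), and Cnot7 with Cnot8 is at -0.025.

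Genes that work with CCR4-NOT were taken from lists made for this description, in the same contrast and against the same 8.35% of genes called. Cnot11 and Tnks1bp1, the remaining genes listed for the complex, were not called, with -0.12 (SE 0.08) and -0.10 (SE 0.15). Among 9 genes listed as other deadenylases 1 was called, Noct. It is a rhythmically expressed protein that resembles Ccr4 in sequence but acts on NADP(H), so its place in that list is by sequence. Noct spanned 9.5 to 10.81 (median 9.97) among Floxed and 7.75 to 9.90 (median 8.85) among LKO mice, with 4 of 6 LKO mice below all Floxed mice. It was lower by a log2 difference of -1.07 (SE 0.34, limma adjusted p = 0.374), and by -0.97 on slide 2. The other 8, which include Pan2 (0.02, SE 0.08), Pan3 (-0.27, SE 0.15) and Parn (0.03, SE 0.08), lay between -0.27 and 0.07 and were not called.

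Of 31 recruiters of the complex 27 were tested, and 2 were called higher and 2 lower in LKO mice, with a median of -0.09. Btg2, an antiproliferative protein that binds the Caf1-type deadenylases, spanned 5.52 to 6.90 (median 5.67) among Floxed and 6.30 to 7.98 (median 6.55) among LKO mice. It was higher by 0.87 (SE 0.30, limma adjusted p = 0.410), and by 1.30 on slide 2, though the groups overlapped and 1 LKO mouse exceeded all Floxed mice. With normexp the Btg2 difference was 0.51. Of its relatives tested, Btg1 (0.33) had a positive estimate and Btg3 (-0.26), Tob1 (-0.25) and Tob2 (-0.22) negative ones, and none was called. Zfp36l1, which brings the complex to mRNAs with AU-rich elements, was higher by 0.39 (SE 0.14), with 4 of 6 LKO mice above all Floxed mice and 0.72 on slide 2. Its relatives Zfp36 (0.52, SE 0.31) and Zfp36l2 (0.23, SE 0.19) had positive estimates and were not called. Ago2, the Argonaute protein that cleaves targets of small RNAs, was lower by a log2 difference of -0.24 (SE 0.10). Samd4, a Smaug-type repressor, was lower by -0.38 (SE 0.16) over all mice but had the opposite sign on slide 2, at 0.26. The Samd4 difference was -0.22 after scaling to the 75th percentile and -0.11 with normexp. No Samd4 value exceeded 4.85, so its mean was below that of Cnot9 (4.98), in the dimmest decile, where 20.7% of genes were called. All 3 Tnrc6 genes were tested and not called, at -0.02 (SE 0.18), -0.14 (SE 0.12) and -0.04 (SE 0.12) for Tnrc6a, Tnrc6b and Tnrc6c. Ago3, Btg4, Nanos1 and Nanos2 were not well above background on all arrays.

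Downstream of deadenylation, 16 of 17 genes of decapping and 5′ decay were tested and 2 were called, both lower in LKO mice, with a list median of -0.03. Edc3, an enhancer of decapping, spanned 4.65 to 5.31 (median 4.85) among Floxed and 4.09 to 4.68 (median 4.46) among LKO mice. It was lower by a log2 difference of -0.44 (SE 0.13, limma adjusted p = 0.333) with 5 of 6 LKO mice below all Floxed mice, and by -0.34 on slide 2. The Edc3 difference was -0.30 after scaling to the 75th percentile and -0.12 with normexp. Its mean intensity of 4.66 lay between those of Cnot7 (4.55) and Cnot9 (4.98), in the dimmest decile, where 20.7% of genes were called. Patl1, which links deadenylated mRNAs to decapping, was lower by -0.26 (SE 0.09) with 4 of 6 LKO mice below all Floxed mice. The helicase Ddx6 (-0.16, SE 0.11) and the exonuclease Xrn1 (-0.27, SE 0.18) were not called, and Dcp2 was not well above background on all arrays. None of 6 poly(A)-binding proteins and their regulators was called, with estimates from -0.20 (SE 0.12) for Pabpc1 to -0.003 (SE 0.13) for Paip2b. All 6 were negative, but Paip2 (0.02) and Paip2b (0.07) were positive with the normexp correction. Of 15 subunits of the RNA exosome and the Ski complex, which degrade RNA from the 3′ end, only Exosc6 was called, at -0.21 (SE 0.09), and the median was 0.04.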

How the data were processed

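The authors deposited, for each of 12 arrays, the processed intensity of every spot from Agilent Feature Extraction (version 9.5.1.1 per the labels, 10.7.1.1 per the file headers), with background subtracted and no normalization between arrays, the median intensity of spot and local background, and marks for outliers and for signal well above background. They also deposited a table of quantile-normalized intensity. Their methods name log2 transformation, quantile normalization, a detection filter and limma at p below 0.05. The RNA kit differs between methods (RiboPure) and labels (TRIzol with a Promega column).

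Control spots (1377) were left out, log2 of the processed intensity was quantile-normalized, outlier spots (0.298%) were set missing, and spots of a probe were averaged. Detection p-values were not used here, so the filter kept probes that all 12 arrays marked well above background (20404 of 39429), a probe counting where at least 0.5 of its spots were marked. Accessions were matched to RefSeq symbols of GRCm38.p6 (94.3% of 28389), and no coordinates are given because the array was designed on another build. The brightest probe stood for a gene. Named were all subunits, and of the other lists the called genes and examples named for their role, the latter chosen after their values were seen. Genotypes were compared with limma 3.58.1 (R 4.3.3) without covariates, each mouse being 1 replicate. Correlations used scipy 1.17.1. The fit was tested on simulated data. Slide came from the deposited arrays. Subunits and lists were chosen with earlier results of these data known. The number of mice, 6 per group, limits the precision. Alternatives covered normalization, background, filter, probe choice, slide, pairing, test, threshold and each array left out. Leaving out the LKO mice of slide 2 was added after seeing the data.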

Additional observations from a re-analysis of the deposited data

Results flagged for a closer look

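In each genotype, the highest and lowest mouse of every subunit and of the within-mouse Cnot7 minus Cnot8 difference were compared with the rest by Dixon's criterion, which chance alone passes in about 1 of 20 groups. Of 22 groups 2 passed, where chance gives 1.1. Cnot6l in Floxed 2 was 10.27, below the other Floxed mice, of which the nearest was at 10.65 and the highest at 10.80. Cnot8 in LKO 2 was 10.25, above the other LKO mice, of which the nearest was at 9.91 and the lowest at 9.82. LKO 2 is also the mouse with the lowest Cnot7 minus Cnot8 difference, at -1.17, and without it the difference between genotypes was -0.47 in place of -0.59.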

How the results depend on the processing

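Cnot7 kept its direction under all 24 alternative analyses and was called in 22, and Cnot9 kept it and was called in 17. These are not independent checks, since several gave the same Cnot7 estimate of -0.54 and others left out 1 array each. Cnot7 was not called with slide as a fixed block or on slide 2 alone, the alternatives that compare genotypes within slides. With scaling to the 75th percentile Cnot9 was -0.12 and 1 subunit was called, and over all genes 1127 were called higher and 316 lower, against 832 and 581. With normexp Cnot9 was -0.021 and Cnot7 minus Cnot8 was -0.20. With slide as a fixed block Cnot7 (-0.50) and Cnot9 (-0.17) were not called, 0 subunits and 317 genes being called, and on slide 2 alone the values were the same, with 0 subunits and 512 genes. Without the filter on dim probes 2791 genes were called. Without the LKO mice of slide 2, which leaves no slide with both genotypes, 2172 were. At an adjusted limma p below 0.05, 0 subunits and 0 genes passed, where 1413 genes had an unadjusted p below 0.05. The methods' t-test called the same 2 subunits and 1236 genes, of which 1 (Pcdhb12, no subunit) passed Benjamini-Hochberg adjustment. At an absolute log2 difference of at least 1 there were 0 subunits and 91 genes. With each array left out in turn, Cnot7 ran from -0.64 to -0.44 and was called each time, Cnot9 from -0.28 to -0.19 and was not called without Floxed 3, Floxed 6 or LKO 6, and Cnot7 minus Cnot8 from -0.70 to -0.47. The subunits called numbered 1 to 3, and the genes called 1103 (without Floxed 3) to 1837 (without LKO 1). Among the other 8 subunits, 5 of 192 values were called, all of them Cnot4 (with normexp, slide as a random block, the replicate block, and without Floxed 3 or LKO 1), and 15 had the opposite sign. Replicate numbers are shared between genotypes, and the correlation of same-numbered deviations ran from -0.24 to 0.32 and was above 0.1 in 3 of 6. Differently numbered mice were not compared and same-numbered mice lay on different slides, so these values cannot decide whether the mice were paired. The main fit did not treat them as paired. The animal numbers in the titles are adjacent within each of the 6 same-numbered pairs, but no label says that these were littermates of each other. With the replicate block Cnot7 was -0.54, Cnot9 -0.24 and Cnot4 -0.39 (SE 0.13) and called, making 3 subunits and 1428 genes. The correlation of Cnot7 with Cnot4 was 0.842 when centred within genotype and slide and 0.760 after scaling to the 75th percentile. The low signal over background of the Cnot7 and Cnot9 probes limits what these arrays show of them.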
